A study of Mus musculus with 25 samples.

Results

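The TCF-1 binding sites of DN3-like T cells were compared with those of fibroblasts in which TCF-1 had been induced. The DN3 sites were taken from 2 peak lists and the fibroblast sites from 1. Overlapping peaks of the DN3 lists were merged into 7161 regions, and the 3107 regions that both lists overlapped were called DN3 sites. Of these, 691 overlapped no fibroblast peak and were called DN3 only, and 2416 overlapped a fibroblast peak by at least 1 bp and were called shared. The 37034 of 39489 fibroblast peaks that overlapped no DN3 site were called fibroblast only. Together these classes held 40141 sites, and the 25 peak lists of the study held 1227153 peaks.

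TCF-1, the product of Tcf7, is an HMG-box factor that bends DNA at a short AT-rich core and can bind beta-catenin or Groucho/TLE corepressors. It is induced by Notch signalling in early thymic progenitors and is required for normal T cell development, where it is known for acting with other T lineage factors at enhancers. It is not a factor that fibroblasts are known for, and the comparison asks where the protein is found in cells with another set of active elements.

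The DN3 cells were the mouse line Scid.adh, which resembles thymocytes at the stage before the pre-T cell receptor checkpoint. They carried a knockout of TCF-1 or an empty vector, and the DN3 TCF-1 lists came from empty-vector cells. The fibroblasts were NIH-3T3, an immortalised mouse line, either with TCF-1 induced or untreated, and their TCF-1 list came from induced cells. H3K27ac (a mark of active promoters and enhancers), the cohesin subunit SMC1, the cohesin loader NIPBL and the insulator protein CTCF had been mapped in the same DN3 lines, and SMC1 and CTCF in the same fibroblasts. The inducer, the promoter that drives TCF-1 and the clonality of the knockout line are not stated in the labels. Nor do the labels say that replicate lists came from separate cultures. Of 10 DN3 marker genes, 9 overlapped an H3K27ac region of the knockout cells and 9 one of the empty-vector cells, against 2 of 10 fibroblast marker genes in each. Counts of genes with an SMC1 peak did not separate the lines. SMC1 of induced and of untreated fibroblasts overlapped all 10 fibroblast marker genes and also 9 and 8 of the 10 DN3 marker genes. The share of the gene body under SMC1 peaks did separate them. In induced and untreated fibroblasts its median was 54.3% and 76.6% for fibroblast markers, against 6.32% and 6.53% for DN3 markers. In knockout and empty-vector DN3 cells it was 22.3% and 16.0% for DN3 markers, against 2.22% and 1.44% for fibroblast markers.

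The promoter windows of 7 genes, 300 bases from 250 before to 50 after an annotated start, show the 3 kinds of site at sequence level. They belong to the 2 widest-ranked listed genes of each class, and Ikzf1 was added after its values had been seen. Sequences are from RefSeq on GRCm38.p6, read along the gene's strand. Capitals mark the TCF/LEF core CTTTGA or the related core CTTTGT on either strand. Myb, which encodes a transcription factor of blood progenitors, has its window at chr10:21160935-21161234 on the minus strand, and a DN3-only site covered all 300 bases. Themis, a T cell receptor signalling adaptor, has its window at chr10:28668110-28668409 on the plus strand, with 274 bases under a DN3-only site. The window of Ikzf1, which encodes the lymphoid factor Ikaros, lies at chr11:11685675-11685974 on the plus strand and was wholly under a DN3-only site.
Myb: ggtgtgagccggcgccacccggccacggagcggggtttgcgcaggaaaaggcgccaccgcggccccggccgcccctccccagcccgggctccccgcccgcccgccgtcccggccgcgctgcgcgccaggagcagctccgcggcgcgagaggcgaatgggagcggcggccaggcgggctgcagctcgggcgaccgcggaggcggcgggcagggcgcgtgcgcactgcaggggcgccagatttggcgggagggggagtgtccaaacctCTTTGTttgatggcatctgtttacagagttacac
Themis: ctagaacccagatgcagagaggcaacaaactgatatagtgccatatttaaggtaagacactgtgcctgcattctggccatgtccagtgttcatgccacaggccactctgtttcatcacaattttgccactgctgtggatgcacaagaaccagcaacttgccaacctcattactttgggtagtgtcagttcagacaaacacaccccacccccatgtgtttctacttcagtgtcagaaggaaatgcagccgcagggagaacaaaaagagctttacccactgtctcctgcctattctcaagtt
Ikzf1: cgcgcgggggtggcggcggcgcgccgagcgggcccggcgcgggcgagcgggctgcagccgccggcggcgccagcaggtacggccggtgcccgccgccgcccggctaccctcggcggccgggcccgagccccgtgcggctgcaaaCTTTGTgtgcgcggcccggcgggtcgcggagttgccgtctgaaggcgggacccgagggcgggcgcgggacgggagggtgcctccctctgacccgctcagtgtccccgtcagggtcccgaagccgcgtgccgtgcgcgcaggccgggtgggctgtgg
The shared examples are the translation initiation factor genes Eif4a2, at chr16:23107218-23107517 on the plus strand, and Eif5, at chr12:111537851-111538150 on the plus strand.
Eif4a2: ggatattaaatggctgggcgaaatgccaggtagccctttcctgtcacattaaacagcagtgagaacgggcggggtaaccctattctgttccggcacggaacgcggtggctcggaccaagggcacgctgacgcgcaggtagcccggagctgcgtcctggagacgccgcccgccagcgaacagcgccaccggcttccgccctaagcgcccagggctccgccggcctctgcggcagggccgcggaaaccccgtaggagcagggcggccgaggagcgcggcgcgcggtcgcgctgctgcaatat
Eif5: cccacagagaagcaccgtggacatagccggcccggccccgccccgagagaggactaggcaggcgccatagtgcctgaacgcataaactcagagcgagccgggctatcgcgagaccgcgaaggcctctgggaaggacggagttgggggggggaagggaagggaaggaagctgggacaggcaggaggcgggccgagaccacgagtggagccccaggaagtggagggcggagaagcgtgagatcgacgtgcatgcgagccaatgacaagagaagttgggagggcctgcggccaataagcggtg
The fibroblast-only examples are Jun, an AP-1 subunit gene, at chr4:95052173-95052472 on the minus strand, and Tle1, a Groucho/TLE corepressor gene, at chr4:72200844-72201143 on the minus strand.
Jun: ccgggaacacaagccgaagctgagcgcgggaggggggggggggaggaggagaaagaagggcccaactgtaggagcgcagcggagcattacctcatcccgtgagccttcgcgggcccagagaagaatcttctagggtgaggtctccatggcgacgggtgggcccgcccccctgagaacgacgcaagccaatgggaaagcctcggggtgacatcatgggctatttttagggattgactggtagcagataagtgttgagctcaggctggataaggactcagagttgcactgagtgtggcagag
Tle1: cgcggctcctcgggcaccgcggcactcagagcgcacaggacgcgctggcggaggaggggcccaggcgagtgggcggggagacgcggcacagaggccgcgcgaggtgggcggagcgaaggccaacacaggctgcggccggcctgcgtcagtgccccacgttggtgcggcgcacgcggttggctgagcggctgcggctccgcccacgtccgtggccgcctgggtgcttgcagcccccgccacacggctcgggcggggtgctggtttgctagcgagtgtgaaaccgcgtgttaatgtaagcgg
Each of these 4 windows lay wholly within its site. The core CTTTGT occurred once in the Myb window, from base 267, and once in the Ikzf1 window, from base 145. Neither core was present in the other 5 windows. The Myb and Ikzf1 windows held 40 and 52 CpG dinucleotides, the Eif4a2 and Eif5 windows 36 and 24, the Jun and Tle1 windows 15 and 40, and the Themis window 1.

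Most sites that both DN3 lists held were also bound in fibroblasts, while most fibroblast peaks had no DN3 counterpart. The shared sites made up 77.8% of the 3107 DN3 sites and the DN3-only sites 22.2%. Seen from the fibroblast list, 6.22% of peaks, or 2455, lay at shared sites. The DN3 lists were much shorter than the fibroblast list, with 4978 and 5356 peaks against 39489. From a single DN3 list, DN3-only sites numbered 1647 in the first and 2008 in the second. Taken singly, 66.9% of the peaks of the first DN3 list and 62.5% of the second overlapped a fibroblast peak. When only the 4978 widest peaks of each list were used, 37.8% of DN3 sites were shared and 1893 were DN3 only. The read depth behind these lists is unknown, and 2 lists against 1 allow 3 splits, of which the smallest exact p is 0.333, so classes are described and not tested.

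Few DN3-only sites lay within 1 kb of a fibroblast peak. Their median distance to the nearest fibroblast peak was 16375 bp, with 7.09% within 1 kb, 37.9% within 10 kb and 23.4% beyond 50 kb. Fibroblast-only peaks lay at a median of 222440 bp from the nearest DN3 site. This median was measured to 3107 DN3 sites, and that of the DN3-only sites to 39489 fibroblast peaks. The medians therefore depend on list length and cannot be compared with each other. No chance level was computed for these distances. Of the fibroblast-only peaks, 1750 (4.73%) overlapped a peak that only 1 of the DN3 lists held. Requiring an overlap of 50% of the shorter interval gave 718 DN3-only sites.

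Peak width is the only value that the TCF-1 lists give beside position, and shared sites had the wider peaks in every list. The width rank of a peak is the share of its list that is no wider. In the first DN3 list the peaks at DN3-only sites had a median width of 303 bp and those at shared sites 411 bp, and in the second list 306 and 418 bp. In the fibroblast list the median was 648 bp for peaks at shared sites and 352 bp for fibroblast-only peaks. The wider a peak, the more often it was shared. Of the narrowest 20% of the first DN3 list 45.4% of peaks met a fibroblast peak, against 89.7% of the widest 20%, and in the second list 41.9% against 90.1%. Of the fibroblast peaks, 1.24% of the narrowest 20% and 18.1% of the widest 20% met a DN3 site. A wide peak also covers more sequence to overlap with.

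In the full lists most shared sites sat at gene starts, and most sites of either line alone did not. Within 1 kb of an outer end of a protein-coding gene lay 151 of 691 DN3-only sites (21.9%), 1939 of 2416 shared sites (80.3%) and 7656 of 37034 fibroblast-only sites (20.7%). Counting every annotated start, 18.4% of DN3-only, 74.3% of shared and 18.3% of fibroblast-only sites lay within 1 kb of one. Gene bodies further away held 36.6%, 5.09% and 37.6% of the 3 classes in that order, and 38.6%, 6.62% and 39.0% lay outside genes. The median distance to a gene end was 9985 bp for DN3-only sites, 0 bp for shared sites and 14897 bp for fibroblast-only sites. The split was alike in each DN3 list. Peaks that met no fibroblast peak were within 1 kb of a gene end in 20.2% of cases in the first list and 18.4% in the second, and peaks that met one in 78.9% and 77.2%. With peaks below their list's median width left out, 42.2% of DN3-only, 85.1% of shared and 26.6% of fibroblast-only sites were near a gene end. With the lists cut to equal length, 57.2% of DN3-only, 84.6% of shared and 30.5% of fibroblast-only sites were within 1 kb of a gene end, so the closeness of the DN3-only to the fibroblast-only share did not hold in the shortened lists.

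**Figure D1:**
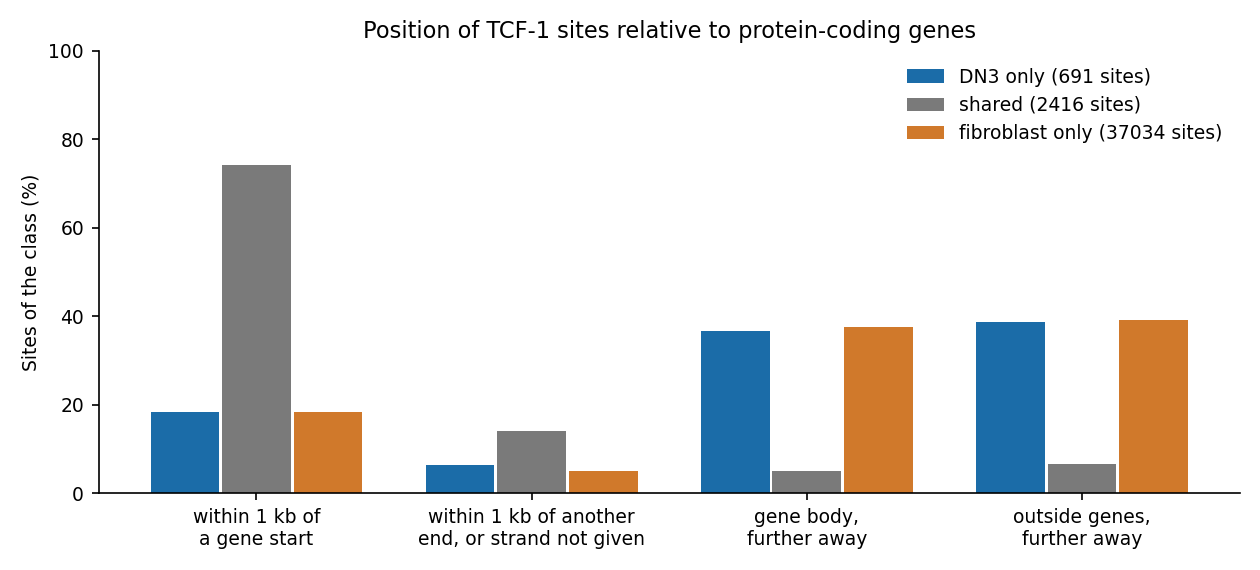
Share of the sites of each class (y axis, %) in 4 positions relative to protein-coding genes (x axis), for 691 DN3-only, 2416 shared and 37034 fibroblast-only TCF-1 sites. The grey bar of shared sites stands at 74.3% within 1 kb of a gene start, against 18.4% for DN3-only and 18.3% for fibroblast-only sites, and the order is turned round in gene bodies and outside genes.

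The sites at starts were centred on the start itself. Among sites whose nearest gene has a known strand, the midpoint lay within 1 kb of the nearest start for 120 of 540 DN3-only sites (22.2%), 1750 of 1961 shared sites (89.2%) and 6399 of 29006 fibroblast-only sites (22.1%). The median midpoint of these sites was 20.5 bp downstream of the start for DN3-only, 12 bp for shared and 1 bp for fibroblast-only sites. The midpoint was upstream in 40.8%, 44.5% and 49.5% of them. The DN3-only sites at promoters were thus centred close to the start, as the shared ones were.

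**Figure D2:**
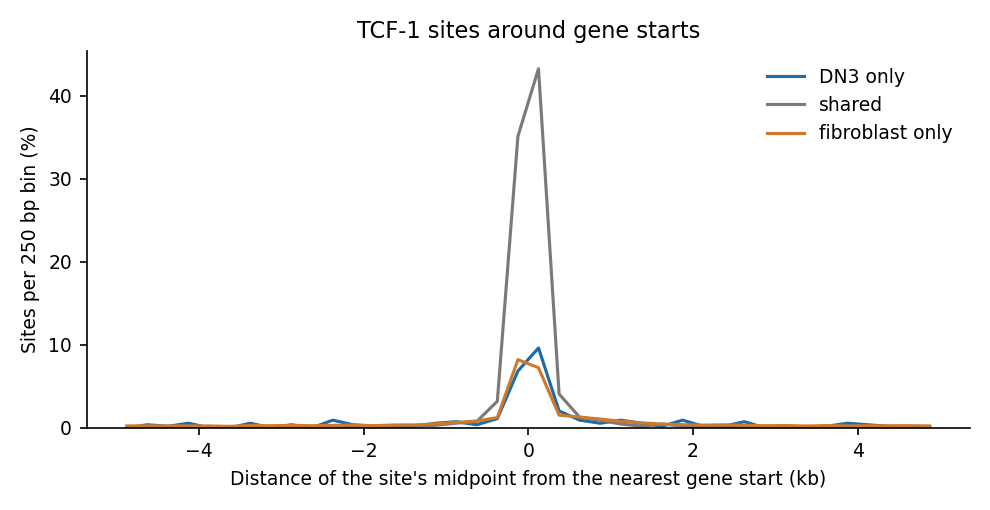
Share of the sites of each class per 250 bp bin (y axis, %) by the distance of the site's midpoint from the nearest gene start (x axis, kb, negative upstream). All 3 lines peak at the start, the line of shared sites by far the highest, and beyond 1 kb they run close to 0.

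The H3K27ac and cohesin lists of the DN3 cells covered nearly all DN3 sites of both classes, and the fibroblast cohesin lists separated them. H3K27ac of empty-vector DN3 cells, counted where both lists held it, overlapped 90.2% of DN3-only, 98.7% of shared and 29.0% of fibroblast-only sites. SMC1 of the same cells overlapped 95.5%, 98.8% and 26.0%. In untreated fibroblasts SMC1 overlapped 26.3% of DN3-only, 98.1% of shared and 82.5% of fibroblast-only sites. In induced fibroblasts the shares were 28.4%, 98.5% and 90.5%. Shared sites were therefore on cohesin in both lines, with or without induced TCF-1, while in the full lists most sites of 1 line were on cohesin in that line and not in the other. SMC1 of fibroblasts rests on 1 list per condition. With the lists cut to equal length, SMC1 of untreated fibroblasts overlapped 71.8% of DN3-only and 99.7% of shared sites, and with peaks below their list's median width left out 49.0% and 99.2%.

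**Figure D3:**
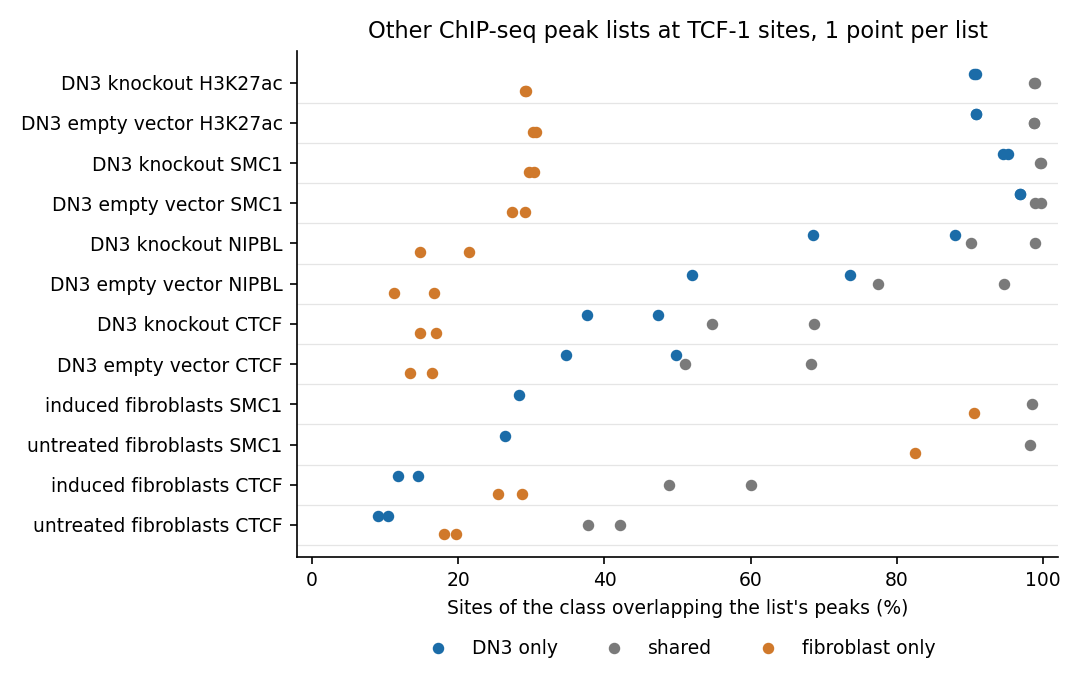
Share of the sites of each TCF-1 class that overlap a peak of another list (x axis, %), by antibody and cells (rows), with 1 point per list. In the DN3 rows the blue DN3-only points lie near the grey shared points and far above the orange fibroblast-only ones for H3K27ac and SMC1, and in the fibroblast SMC1 rows the DN3-only points, at 26.3% and 28.4%, are the lowest.

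CTCF and NIPBL marked shared sites more often than DN3-only sites. CTCF was in both empty-vector DN3 lists at 31.8% of DN3-only, 48.3% of shared and 12.9% of fibroblast-only sites. NIPBL was in both at 49.9%, 76.9% and 10.8%, though its 2 lists differed, with 52.0% and 73.5% of DN3-only sites. In induced fibroblasts both CTCF lists held 11.1% of DN3-only, 46.6% of shared and 23.5% of fibroblast-only sites, and in untreated fibroblasts 8.10%, 32.6% and 16.0%. Part of the gap goes with position. Among sites within 1 kb of a gene end, CTCF of empty-vector DN3 cells was at 46.4% of DN3-only and 48.1% of shared sites, and further away at 27.8% and 49.1%. NIPBL was at 73.5% and 79.4% near gene ends, and at 43.3% and 66.9% further away. The fibroblast SMC1 gap also narrowed at gene ends, where untreated fibroblasts had SMC1 at 60.3% of DN3-only and 99.6% of shared sites, against 16.9% and 92.2% further away.

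Fibroblast-only sites were mostly bare in DN3 cells. Neither SMC1 nor CTCF was in both empty-vector DN3 lists at 73.6% of them, against 4.34% of DN3-only and 1.04% of shared sites. Those near a gene end differed from the rest. H3K27ac of empty-vector DN3 cells overlapped 71.6% of fibroblast-only sites within 1 kb of a gene end and 17.8% of those further away, so many promoters that TCF-1 occupied in fibroblasts alone were acetylated in DN3 cells without a TCF-1 peak in both DN3 lists.

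Few DN3 sites differed in these marks between knockout and empty-vector cells. Of 691 DN3-only sites, 0 had SMC1 in both knockout lists and neither empty-vector list, and 10 (1.45%) the other way round. For H3K27ac the counts were 7 and 8, for CTCF 11 and 12, and for NIPBL 33 (4.78%) and 1. Of 2416 shared sites the counts were 0 and 1 for SMC1, 4 and 4 for H3K27ac, 39 and 30 for CTCF and 18 and 2 for NIPBL. Knockout-only counts had little room for SMC1, which at least 1 empty-vector list held at 98.1% of DN3-only and 99.75% of shared sites. For H3K27ac these shares were 91.3% and 98.8%. Counts over all regions of each mark are not given, so the low counts cannot be called particular to TCF-1 sites. NIPBL was held by both lists at 68.3% of DN3-only sites in knockout cells and 49.9% in empty-vector cells, and at 90.1% and 76.9% of shared sites. At fibroblast-only sites it was held at 14.4% in knockout and 10.8% in empty-vector cells. Single NIPBL lists overlapped 88.0% and 68.5% of DN3-only sites in knockout cells, against 52.0% and 73.5% in empty-vector cells. For shared sites they overlapped 98.9% and 90.1% in knockout cells, against 77.4% and 94.7% in empty-vector cells. The lists of the 2 conditions thus overlapped in range, and the counts over both lists rest on the lower list of each. With 2 lists against 2, no exact test over lists can pass.

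Target genes were protein-coding genes with a site within 10 kb of the gene body. Of 21887 genes, 567 (2.59%) had a DN3-only site, 3416 (15.6%) a shared site and 12530 (57.2%) a fibroblast-only site. Any DN3 site was near 3821 genes (17.5%) and any fibroblast peak near 13484 (61.6%). These shares are the background against which the gene lists are read. Most targets of DN3-only sites were not free of TCF-1 in fibroblasts, since 452 of the 567 (79.7%) also had a fibroblast peak within 10 kb and 115 had none. A shared site was near 162 of the 567. With DN3 sites taken from the second list alone, 1371 genes (6.26%) had a DN3-only site, and from the first alone 1203 (5.50%). The genes with a DN3-only site had a median length of 30.5 kb, those with a shared site 20.8 kb and those with a fibroblast-only site 24.6 kb, against 17.2 kb for all genes.

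Among the gene lists, T lineage regulators stood furthest above that background in DN3-only sites. Of 18 T lineage regulators, 7 (38.9%) had a DN3-only site, 4 a shared site and 13 a fibroblast-only site. These genes are long, with a median of 84.7 kb, and of all genes of 50 to 200 kb 3.97% had a DN3-only site. The 7 were Lef1, Ikzf3, Tcf7, Myb, Ikzf1, Bcl11b and Zbtb7b. All 9 sites at these genes overlapped SMC1 and H3K27ac in both empty-vector DN3 lists, 6 overlapped NIPBL and 4 CTCF. SMC1 of untreated fibroblasts overlapped 1 of the 9 and SMC1 of induced fibroblasts 0. Of all DN3-only sites, 95.5% overlapped SMC1 and 90.2% H3K27ac in both of these DN3 lists, 49.9% overlapped NIPBL and 31.8% CTCF, and 26.3% met SMC1 of untreated and 28.4% SMC1 of induced fibroblasts. The counts at the 9 sites were near those shares. From the second DN3 list alone 13 of the 18 had a DN3-only site, and from the first alone 10, against 6.26% and 5.50% of all genes. The list was chosen with earlier results of these cells known, so its count is a description.

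Single genes show how close the classes can lie. Tcf7, which encodes TCF-1 itself, had a shared site over its start at chr11:52282885-52283567, with a width rank of at least 88.2% in each of the 3 lists. A DN3-only site of 352 bp lay 918 bp upstream of the start, at chr11:52284301-52284652, and 6 fibroblast-only sites lay within 10 kb. A TCF-1 peak list of the knockout cells was not analysed here.

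Lef1, the closest relative of Tcf7, had no shared site. Its DN3-only sites were 4026 bp from the gene's start, at chr3:131105919-131106271, and inside the gene body at chr3:131208542-131209007. Their width ranks in the first DN3 list were 55.6% and 72.4%, and a single fibroblast-only site lay at the gene. Bcl11b, which fixes T lineage commitment, had 1 DN3-only site 75766 bp inside the gene from its start, at chr12:107927962-107928379, and 1 fibroblast-only site. The width ranks of this DN3-only site were 14.7% in the first DN3 list and 71.9% in the second. Zbtb7b, which directs CD4 lineage choice, had a DN3-only site of 306 bp at chr3:89387034-89387339 and 4 fibroblast-only sites. The ranks of the DN3-only site at Zbtb7b were 45.2% and 7.65%, so the DN3 lists differed on both genes.

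Myb, Ikzf1 and Ikzf3 had DN3-only sites at or inside the gene. The Myb site, at chr10:21160646-21161336, had a width rank of 87.2% in the first DN3 list and 85.7% in the second. The Ikzf1 site, at chr11:11685532-11686058, had ranks of 27.1% and 80.9%, so the DN3 lists differed on it. Neither gene had any fibroblast peak within 10 kb. Ikzf3, which encodes Aiolos, had DN3-only sites at chr11:98469825-98470508 and chr11:98526452-98526874 and 2 fibroblast-only sites. Other regulators had only fibroblast-only sites, among them Ets1 with 18, Runx1 with 15 and Gata3 with 1, and Tox, Satb1 and Runx3 had no site of any class. Tcf3 and Tcf12, which encode E proteins, had shared sites over their starts, the one at Tcf3 with a width rank of 98.0% or more in all 3 lists.

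The T cell receptor list had 5 of 25 genes with a DN3-only site, 2 with a shared and 12 with a fibroblast-only site. Ptprc, the CD45 phosphatase, had 3 DN3-only sites, 2 in the gene body and 1 that lay 2070 bp from its start. Cd247, the zeta chain of the receptor, had 1 in the gene body, Themis 1 over its start and Fyn 1 in the gene body. All 7 sites overlapped SMC1 and H3K27ac in both empty-vector DN3 lists and none overlapped fibroblast SMC1, where 95.5%, 90.2% and 26.3% to 28.4% of all DN3-only sites did. Cd247 had no fibroblast peak within 10 kb. Ptcra, the pre-T cell receptor alpha chain, had 2 shared sites outside the gene body, 11082 and 8609 bp from its start. No DN3 site was at Cd3e, Cd3d, Cd3g, Rag1, Rag2, Lck or Zap70, among others of the list. Only 17.5% of all genes, and 6 of these 25, had any DN3 site, so absence at single genes does not set them apart.

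A few Notch and cytokine receptor genes had DN3-only sites. Of 11 Notch pathway genes, 2 (18.2%) had a DN3-only site, 2 (18.2%) a shared and 7 (63.6%) a fibroblast-only site. Over all genes the shares were 2.59%, 15.6% and 57.2%, so the shared and fibroblast-only counts were near the background. The DN3-only pair was Notch1, with a site over its start at chr2:26503568-26503997, and Dtx1, a Notch target, with a site in its body and no fibroblast peak. The Notch1 site had width ranks of 11.1% in the first DN3 list and 68.8% in the second. Rbpj, the DNA-binding partner of Notch, had 2 shared sites and Notch2 had 1. Of 17 cytokine receptor and homing genes, 3 (17.65%) had a DN3-only site, 0 a shared and 9 (52.9%) a fibroblast-only site, the last near the background. The 3 were the chemokine receptor genes Cxcr4, with sites over and 742 bp upstream of its start, and Ccr9, and the signal transducer gene Stat5a. The DN3 lists differed on the Ccr9 site, with width ranks of 7.37% and 73.6%.

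The Wnt pathway list followed the shared class. Of its 22 genes, 2 (9.09%) had a DN3-only site, 14 (63.6%) a shared site and 19 (86.4%) a fibroblast-only site. The DN3-only sites were at the receptor gene Lgr5 and at Znrf3, which encodes a ligase that removes Wnt receptors. Shared sites were at Axin2, a feedback inhibitor, at the Ctnnb1 start and at Myc, among others. The Axin2 site, 2270 bp from the gene's start at chr11:108920098-108921525, had a width rank of 99.6% in each DN3 list and 82.0% in the fibroblast list.

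Genes of general cell function carried shared sites more often than the 15.6% of all genes. Their DN3-only counts were low, but only 2.59% of all genes, and 1.35% of those of up to 10 kb, had a DN3-only site. Counts of 0 were thus near the share of all genes. Oxidative phosphorylation genes had a DN3-only site at 3 of 72 (4.17%), and RNA polymerase II and Mediator genes at 1 of 41 (2.44%). Of 81 ribosomal protein genes, 0 had a DN3-only site, 32 (39.5%) a shared site and 61 (75.3%) a fibroblast-only site. Of 77 mitochondrial ribosomal protein genes the counts were 0, 27 and 63, and of 50 translation initiation factor genes 0, 21 and 37. Of 14 single housekeeping genes 0, 10 and 12 had a site of these classes. The 10 shared sites with the highest width ranks were nearest Hnrnpk, Ube2d3, Eif4a2, Bzw1, Ncl, Btbd10, Banp, Eif5, Cdk12 and Rbm39, and 9 of them lay at a start. With lists of equal length the ribosomal protein genes had 13 DN3-only, 23 shared and 12 fibroblast-only counts. With the full fibroblast list their DN3-only count was 5 for regions in either DN3 list, 3 without DN3 replicate 1 and 2 without replicate 2. The 0 thus depended on list length and on the rule for DN3 sites. With lists of equal length T lineage regulators had 8, 2 and 4 of 18, where the background over all genes was 10.4%, 7.94% and 13.8%.

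Replication-dependent histone genes were listed in both DN3 classes. Of 67 genes, 9 (13.4%) had a DN3-only site, 34 (50.7%) a shared and 43 (64.2%) a fibroblast-only site. They are near-identical copies packed in clusters, so sites within 10 kb are counted at several genes and reads may be shared between copies. The handling of reads with several matches is not stated.

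Matrix genes had TCF-1 sites in fibroblasts and, in the lists used, none in DN3 cells. Of 20 matrix genes, which include the collagens Col1a1 and Col3a1, 0 had a DN3-only site, 0 a shared and 19 a fibroblast-only site, with 11 sites at Col1a1, 11 at Col3a1 and 15 at the fibrillin gene Fbn1. Of 18 contractile genes and YAP targets, 0, 2 and 17 had a site of these classes, and of 18 mesenchymal factors and growth factor receptors 1, 3 and 17. The mesenchymal gene with DN3-only sites was Smad3, a TGF-beta signal transducer, with 3 within its body, 1 shared site over its start and 16 fibroblast-only sites. Of 10 AP-1 genes 0 had a DN3-only site, 4 a shared and 9 a fibroblast-only site. Over all genes 2.59% had a DN3-only and 15.6% a shared site. In lists this short, DN3-only counts of 0 are near that share and set these genes apart from no others. In fibroblasts the background is 57.2%, so 19 of 20 is above it while the 12 of 25 T cell receptor genes (48.0%) are below.

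**Figure D4:**
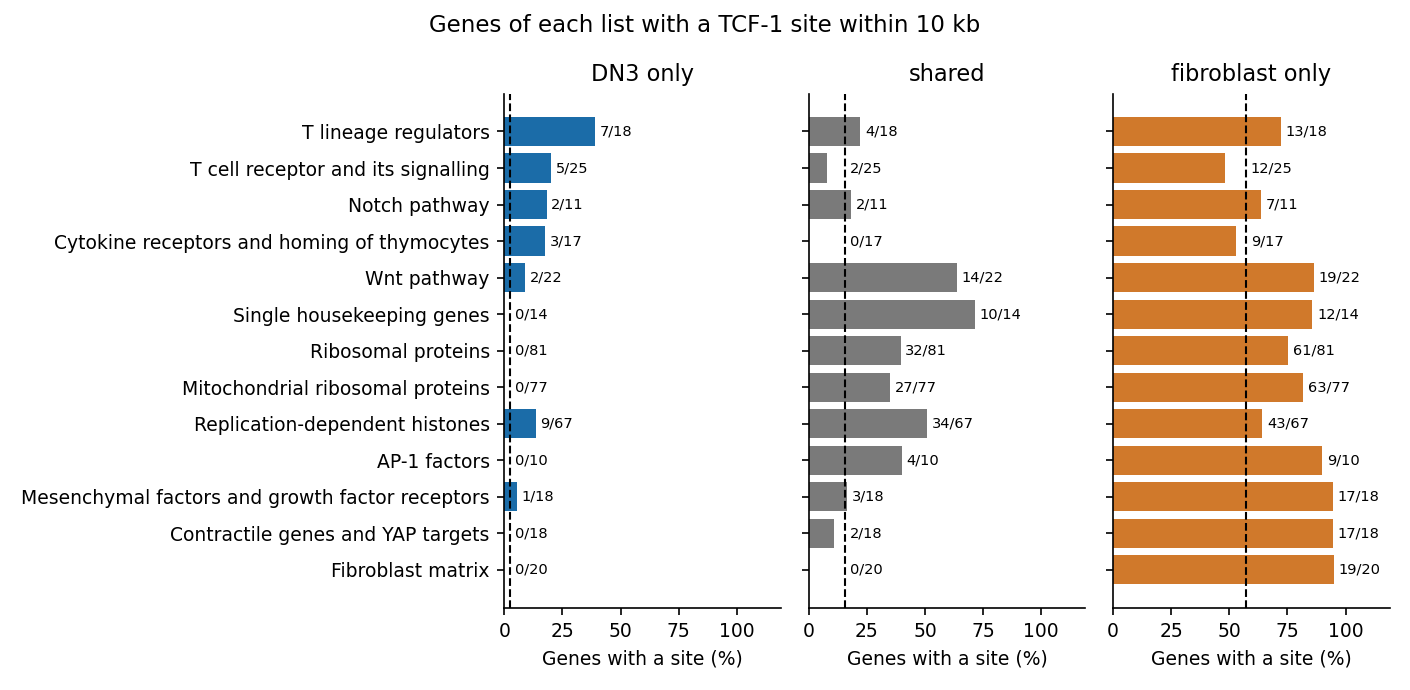
Share of the genes of each list (rows) with a TCF-1 site of the class within 10 kb of the gene body (x axis, %), in 3 panels, with counts at the bars. The dashed line is the share of all 21887 protein-coding genes, at 2.59% for DN3 only, 15.6% for shared and 57.2% for fibroblast only. The T lineage bar, 7 of 18, is the highest DN3-only bar, and the matrix genes have 19 of 20 fibroblast-only and none in the other panels.

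The widest DN3-only sites were near other genes than those of the lists. The 10 highest by width rank in both lists were nearest Pou2f1, Kif21b, Cd24a, Arhgap20, Zc3h10, Slc1a3, Tle5, Pcbp1, E2f7 and Dapk3. The first of these, of 1157 bp at chr1:166048264-166049420, lay 45515 bp from Pou2f1, which encodes the factor Oct-1. Cd24a, a surface protein of immature thymocytes, had its site at chr10:43578979-43579815, where SMC1 and CTCF of both fibroblast conditions were also present. Tle5, a TLE family gene, had its site in the gene body. The genes with most DN3-only sites were Ifi202b with 7, Esrrg with 5 and Catspere1 with 4, all on chromosome 1. Ifi202b belongs to a cluster of similar interferon-inducible genes, so its count is uncertain. The genes with most fibroblast-only sites were long ones, led by Dnm3 with 42 and Rad51b with 41.

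DN3-only sites were unevenly spread over the chromosomes. Chromosomes 1, 10 and 15 held 331 of the 691 (47.9%), against 26.1% of shared sites, 17.4% of fibroblast-only sites and 13.6% of protein-coding genes. Both DN3 TCF-1 lists had the excess, with 32.5% and 33.9% of peaks there, against 17.95% of the fibroblast list. The SMC1, H3K27ac, NIPBL and CTCF lists of the DN3 cells did not show it to that extent. SMC1 had 20.3% and 19.97% there in knockout cells and 21.9% and 20.9% in empty-vector cells, H3K27ac 18.04% and 18.3% in knockout and 17.4% and 17.2% in empty-vector cells. The NIPBL lists had 17.6% to 18.6% there and the CTCF lists 17.93% to 18.11%. Of the H3K27ac regions of empty-vector cells, 20.8% on chromosome 10, 13.3% on chromosome 15 and 12.1% on chromosome 1 held a DN3 site, against 5.27% to 10.2% on the other 17 chromosomes. The share with a fibroblast peak ran from 25.3% to 40.4% over all chromosomes. The cause was not tested.

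Without chromosomes 1, 10 and 15, a setting chosen after the data were seen, 360 DN3-only and 1786 shared sites were left and 83.2% of DN3 sites were shared. Within 1 kb of a gene end were then 22.8% of DN3-only, 81.1% of shared and 21.8% of fibroblast-only sites. T lineage regulators with a DN3-only site numbered 6, with a shared site 3 and with a fibroblast-only site 12. Of all 18906 genes elsewhere, 321 (1.70%) then had a DN3-only site, 2636 (13.9%) a shared and 10685 (56.5%) a fibroblast-only site.

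**Figure D5:**
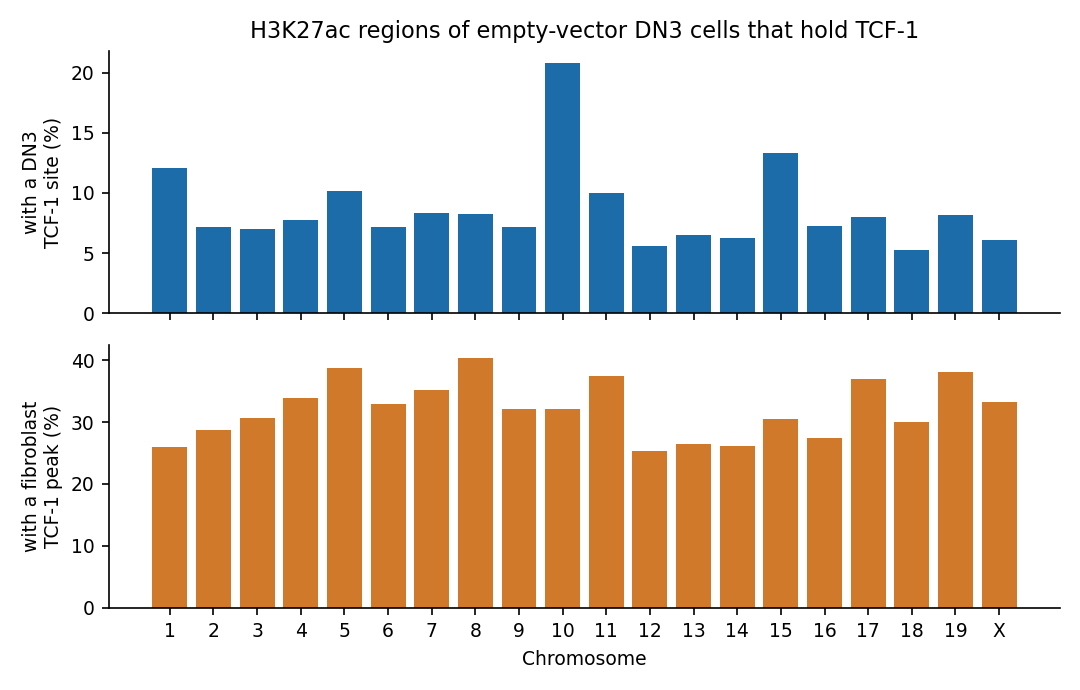
Share of the H3K27ac regions of empty-vector DN3 cells (both lists) that hold a DN3 TCF-1 site (upper panel, y axis, %) or a fibroblast TCF-1 peak (lower panel, y axis, %), by chromosome (x axis). Chromosome 10, at 20.8%, stands highest in the upper panel, followed by 15 and 1, and in the lower panel these 3 are within the range of the others.

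The promoter windows under the sites were rich in CpG, and over all windows TCF/LEF cores were no more frequent under the sites than in the whole set. Promoter windows were at hand for 17492 genes, 21263 windows in all. A DN3-only site lay over a window of 90 genes (0.515%), a shared site of 1800 (10.3%) and a fibroblast-only site of 4902 (28%). The median window held 23.5 CpG under DN3-only, 26 under shared and 22 under fibroblast-only sites, against 13 over all windows. A shared site lay over 0.116% of windows with fewer than 5 CpG and over 21.7% of those with 25 or more, and DN3-only sites over 0.0829% and 0.855%. The core CTTTGA, read on both strands, was in 9 of 98 windows under DN3-only sites (9.18%), in 10.4% under shared and 11.1% under fibroblast-only sites, and in 14.4% of all windows. The core CTTTGT was in 14.3%, 10.6%, 12.7% and 16.8% of the same sets. Among windows with at least 15 CpG, CTTTGA was in 5.26% under DN3-only, 9.81% under shared and 8.80% under fibroblast-only sites, against 8.46% of all such windows, and CTTTGT was in 13.2%, 9.86% and 10.5%, against 10.2%. Among windows with at least 25 CpG, CTTTGA was in 2.22%, 7.61% and 5.19% under the 3 classes, against 5.61% of all such windows, and CTTTGT was in 11.1%, 8.399% and 7.41%, against 8.04%. In CpG-rich windows the classes thus lay on both sides of the whole set, and the DN3-only shares of CTTTGT were 10 of 76 and 5 of 45 windows.

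The ETS and SP/KLF motifs differed more from all windows than the TCF/LEF cores did. Both contain a CpG, and their shares among CpG-rich windows are not given. The ETS core CCGGAA, searched on both strands, was in 26.5% of windows under DN3-only, 37.9% under shared and 32.7% under fibroblast-only sites, against 18.7% of all windows. The SP/KLF box GGGCGG was in 79.6%, 73.5% and 69.1%, against 46.2%. The AP-1 motif TGANTCA was in 3.06%, 3.11% and 5.08%, against 6.99% of all windows, and the RUNX core TGTGGT in 10.2%, 11.5% and 11.1%, against 14.97%. The windows cover promoters alone, and 13.0% of DN3-only sites touched one. The sequence of the others was not read.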

How the data were processed

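Chromatin immunoprecipitation and sequencing had been done on 25 samples, 18 of Scid.adh DN3-like cells and 7 of NIH-3T3 fibroblasts, and the authors deposited 1 peak list per sample. Bowtie2, MACS2, bedtools and the mm10 build (GRCm38) are named per the submitters' processing notes; thresholds, controls and versions are not stated there. The TCF-1, CTCF and SMC1 lists give peak positions alone, so a peak's width, as its percentile in its own list, stood in for strength. Positions were the only values used, and read totals were not, so depth is unknown and no interval for counting error was made.

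Groups came from the labels. Gene positions were those of 21887 protein-coding RefSeq genes (GRCm38.p6), and strand and promoter windows were taken for 17492 of them. Overlaps needed 1 bp. A mark counted for a condition where every list of it overlapped the site. No test was run, since 2 lists against 1 cannot give a small exact p. Scripts ran under Python 3.11.15 with pandas 2.3.3, numpy 2.4.6 and matplotlib 3.10.9; the interval code was tested on simulated data, where 8 of 8 planted or bedtools 2.31.1 quantities were recovered.

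The members, gene lists and tests were chosen with earlier results of these data known. Named genes were, per class, those nearest the 10 sites of highest width rank, the 10 with most sites, and the members of the T cell, Notch, Wnt, cytokine receptor and fibroblast lists. Other overlaps, widths, list lengths, distances and site definitions were tried. Not every gene of these lists is reported here by name.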

Additional observations from a re-analysis of the deposited data

How the results depend on the processing

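List length moved most values. With the 4978 widest peaks of each list, 37.8% of DN3 and 22.8% of fibroblast sites were shared; 57.2% of DN3-only, 84.6% of shared and 30.5% of fibroblast-only sites were near a gene end (differences of -27.4 points from shared and 26.8 from fibroblast only); untreated fibroblast SMC1 overlapped 71.8% of DN3-only and 99.7% of shared sites, and DN3 SMC1 34.5% of fibroblast-only sites; 37.0% of DN3-only sites were on chromosomes 1, 10 and 15; and 2273, 1738 and 3025 genes had a DN3-only, shared and fibroblast-only site. With peaks below their list's median width left out these were 81.9% and 6.74% shared, 42.2%, 85.1% and 26.6% near a gene end (-42.9 and 15.6 points), 49.0%, 99.2% and 32.0% on SMC1, 57.1% on the 3 chromosomes, and 324 and 2047 genes for DN3 only and shared. The smaller lists themselves remove partners to overlap with.

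With regions in either DN3 list, 59.1% of DN3 and 10.7% of fibroblast sites were shared, 18.3%, 77.1% and 18.04% were near a gene end (-58.8 points between DN3 only and shared), DN3 SMC1 overlapped 23.3% of fibroblast-only sites, 50.5% of DN3-only sites were on chromosomes 1, 10 and 15, and 1882 genes had a DN3-only and 5355 a shared site. Leaving out either DN3 replicate gave 62.5% to 66.9% of DN3 sites and 8.38% to 8.46% of fibroblast sites shared; 18.4% to 20.2% of DN3-only, 77.2% to 78.9% of shared and 19.3% to 19.5% of fibroblast-only sites near a gene end, with differences of -58.8 to -58.7 points from shared and of -1.03 to 0.885 from fibroblast only; 25.3% to 32.1% of DN3-only and 97.4% to 98.2% of shared sites on untreated fibroblast SMC1; 25.1% of fibroblast-only sites on DN3 SMC1; 49.4% to 50.6% of DN3-only sites on the 3 chromosomes; and 1203 to 1371 genes with a DN3-only site. The difference between DN3-only and fibroblast-only sites in gene-end share thus changed sign, to -1.03 points, without DN3 replicate 1, and its cause was not tested.

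Without chromosomes 1, 10 and 15, chosen after the data were seen, 83.2% of DN3 and 5.55% of fibroblast sites were shared, 21.8% of fibroblast-only sites were near a gene end (-58.3 points between DN3 only and shared), DN3 SMC1 overlapped 27.7% of fibroblast-only sites and 321 genes had a DN3-only site. Merging across 500 bp gave 6.50% of fibroblast sites shared and -59.8 points; an overlap of 50% gave 23.5% of DN3-only sites near a gene end, -56.9 and 2.79 points; windows of 500 bp gave -57.1 points. A gene end within 5 kb gave 37.0%, 89.3% and 33.7% (-52.2 and 3.34 points). Any DN3 SMC1 list gave 30.5% of fibroblast-only sites. Genes with a DN3-only site numbered 358 within 0 kb of the body and 1276 within 50 kb, where 6121 had a shared site. Restricting to chromosomes 1 to 19 and X removed no site from any class, so it could not move any of the 26 values. The gene-end share was lower in DN3-only than in shared sites under every setting listed here. No paired analysis was possible because fibroblast TCF-1 has a single list, so the groups share fewer than 2 replicate numbers, and no test was run. Depth, thresholds and enrichment are unknown, which limits any reading of an absent peak.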

Other observations

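The 4054 regions that only 1 DN3 list held had narrower peaks and fewer DN3 marks than the DN3-only and the shared sites. H3K27ac and SMC1 of empty-vector DN3 cells, counted in both lists, overlapped 81.2% and 82.1% of them. Their peaks had median widths of 260 bp in the first list and 252 bp in the second. A fibroblast peak met 44.7%, and the 42.1% within 1 kb of a gene end lay between the shares of the DN3-only and the shared sites.

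Sensory receptor families had few sites. Of 1110 olfactory receptor genes, 2 had a DN3-only site, 1 a shared and 33 a fibroblast-only site, and of 353 vomeronasal receptor genes 0, 0 and 11. Of 39 Hox genes, which set position along the body axis, 0, 0 and 18 (46.2%) had a site of these classes, and of 57 clustered protocadherin genes 0, 0 and 35 (61.4%). Over all genes the shares were 2.59%, 15.6% and 57.2%. The DN3-only and fibroblast-only counts of the Hox and protocadherin genes were thus near the background. Genes in clusters can also share a site within 10 kb. Of 12 B lineage genes 0 had a DN3-only site, 3 a shared and 3 a fibroblast-only site, and of 12 myeloid genes 1, 1 and 7, the DN3-only one being Spi1. Of 11 natural killer and innate lymphoid genes 2, 1 and 7 had one, the DN3-only pair being Rora and Tbx21. Each of Spi1, Rora and Tbx21 had its DN3-only site in H3K27ac of empty-vector DN3 cells, as 90.2% of all DN3-only sites were. In knockout cells both H3K27ac lists held the sites at Rora and Tbx21 but not the one at Spi1. The sites at Tbx21 and Spi1 were among the narrower peaks, with width ranks of 12.2% and 15.6% at Tbx21 and of 21.0% and 9.67% at Spi1.

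Stretches of 5 Mb with most DN3-only sites were chromosome 10 from 40 Mb, with 22 DN3-only and 18 shared sites, chromosome 10 from 80 Mb, with 21 and 50, and chromosome 1 from 170 Mb, with 20 and 15.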
